A study of Amia calva with 36 samples.

Results

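The 100 genes described here were chosen by how often they were read, where a gene counts as read in a library if its deposited value lies above a log2 of 0.88, which is the same as at least 1 read. From the 11428 bowfin genes paired with a spotted gar ortholog, the 3047 genes read in at most 2 of the 12 stage 27 libraries were taken. They were ranked by the number of the 24 libraries of stages 24 and 25 (the early libraries) in which they were read, and the first 100 were kept. The measured values at all 3 stages thus chose the set, so its difference between stage 27 and the early stages is described without a test. The working name of the set, genes read early but rarely at stage 27, describes it only in part. No gene of the set was read in more than 9 of the 24 early libraries, and 52 of the 100 were read in 2. In stage 27 libraries 10.1% of the gene and library combinations held a read, against 12.4% in early libraries. Over all genes with a gar ortholog these shares were 59.2% at stage 27 and 25.0% early, so stage 27 libraries held more genes in general. Per 1000 ortholog genes read, the median library held 1.39 genes of the set at stage 27 and 4.34 early. With each library thinned to 377516 reads, which leaves out 1 shallower early library, 6.33% of the combinations of the set held a read at stage 27 and 10.6% early. As the rule chose for it, the set was read less at stage 27 than early relative to other genes and at equal reads. These values thus lend no support to its name. At both times the set was read in few libraries, and it is called below the rarely read genes. They are not the rarest of all, since 2518 of the 3047 genes had no early read and 373 were read in 1 early library. Among the 3047, the set holds those read in the most early libraries.

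RNA was sequenced from laser-captured foregut of bowfin (Amia calva) embryos that were raised at 12.8 °C and cut into 15 µm sections. Dorsal endoderm, ventral endoderm, dorsal mesoderm and ventral mesoderm were collected at Ballard stages 24, 25 and 27, which gave 12 groups of 3 libraries. The embryos came from wild nests, the labels name no treatment, and they do not tie libraries to embryos or say whether embryos were pooled. Replicates may share animals, and a p-value here speaks only of how far these libraries differ from each other.

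The bowfin is a ray-finned fish that breathes air with a gas bladder, which buds dorsally from the foregut, while lungs arise on its ventral side. Endoderm gives the lining of this organ and mesoderm its muscle and connective tissue. Per the labels, stage 24 lies before budding, stage 25 at budding and stage 27 in outgrowth. Laser capture yields little RNA, and it was amplified before sequencing. The table gives bowfin and gar identifiers without gene names, so no function is given for any gene, and the captured tissues could not be checked against named markers.

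Libraries held 3040 to 1998280 reads. Replicate 3 of stage 24 ventral endoderm held 3040, so that 1 read there equals 329 CPM (counts scaled to a common library total), while no other library had fewer than 377516. Stage 27 libraries held reads of 8511 to 13512 genes, against 1259 to 8249 in early libraries. Each stage has its own run of library numbers (1 to 12 for stage 27, 13 to 24 for stage 24 and 25 to 42 for stage 25), so a batch and a stage cannot be told apart. In bulk tissue, fewer cells that carry a transcript and less of it per cell cannot be told apart either.

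Genes that were read widely at the early stages and then missing at stage 27 were not found among those with a gar ortholog. Of the 3050 genes read in 10 or more early libraries, each was read in at least 3 stage 27 libraries, and 2357 (77.3%) were read in all 12. Only 2 of these 3050 were read in fewer than 6. The rarely read genes are the far corner of this distribution. They made up 2 of the 391 genes read in 9 early libraries, 6 of the 464 read in 6, 4 of the 496 read in 5, 12 of the 576 read in 4, and 24 of the 636 read in 3. No gene read in 7 or 8 early libraries met the stage 27 limit. Both genes at 9 early libraries, AMCG00000598 and AMCG00016276, stood apart from their neighbours, since every other gene at that number was read in 6 or more stage 27 libraries.

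**Figure D1:**
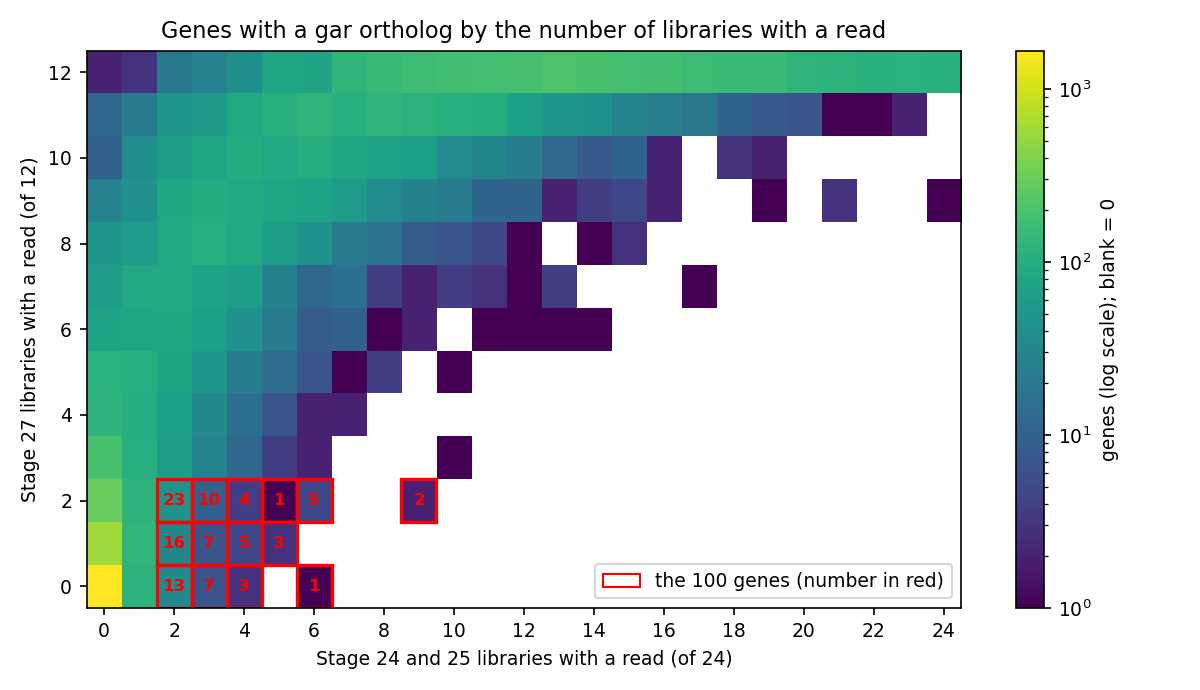
Genes with a gar ortholog by the number of early libraries (horizontal axis, of 24) and of stage 27 libraries (vertical axis, of 12) in which they were read, with the number of genes as colour on a log scale and the rarely read genes framed in red. Genes read in at most 2 stage 27 libraries end at 6 early libraries, apart from the 2 genes at 9, and the lower right of the plot is empty.

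The cut at 100 fell within the 108 genes read in 2 early libraries and was set by their mean log2 CPM. The last gene inside, AMCG00014584, had a mean of 1.118 over the early libraries, and the first outside, AMCG00019406, a mean of 1.109. AMCG00014584 had 42 reads in 1 library of stage 24 dorsal mesoderm, 6 in 1 of stage 25 ventral mesoderm and 4 in 1 of stage 27 ventral mesoderm. AMCG00019406 had 29 reads in 1 library of stage 24 ventral mesoderm, 1 read in 1 of stage 25 dorsal endoderm and none at stage 27. Both genes thus had reads in 2 early libraries, a number that the ranking fixed. Of this pair only the gene inside the cut had reads at stage 27, which did not hold further from it. Outside, AMCG00012370 had no read at stage 27 and AMCG00009394 had 18. Inside, AMCG00021896 had 9 and AMCG00012516 had 1.

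Most of the early CPM of a rarely read gene lay in 1 library, which the low number of libraries read in part fixes. In the median gene, the highest early library held 75.8% of the CPM summed over the early libraries, and in 92 of the 100 genes it held over 50%. For the 52 genes read in 2 early libraries, the higher of them must hold at least 50%. A share of CPM is also not a share of reads. In AMCG00000598 the library of 3040 reads held 77.1% of the early CPM with 3 of its 240 early reads. Only 2 genes were read in 3 of 3 libraries of any early group, and 25 were read in at least 2 of 3. Of the genes, 70 were read at both early stages, 20 at stage 24 but not 25, and 10 at stage 25 but not 24. The share of libraries with a read was lower at stage 27 than early for 47 genes, equal for 20 and higher at stage 27 for 33. The counts of stage 27 against early follow from the choice of the genes. The rule pooled stages 24 and 25, but reading at 1 stage or in 1 group depends on the number of libraries read. No share over all genes is set beside these counts, so they describe the set only.

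The levels in the libraries with a read differed by stage more than the number of such libraries did. Where a rarely read gene was read, its median level was 19.9 CPM at stage 24 (quartiles 4.26 and 53.0), 8.82 CPM at stage 25 (1.92 and 71.1) and 2.66 CPM at stage 27 (0.981 and 6.87). Over all genes with a gar ortholog the corresponding medians were 35.5, 37.9 and 25.0 CPM. At stage 27, 28.9% of the occurrences of the set (an occurrence is a gene read in a library) were single reads and 19.0% had over 10 reads, against 17.8% and 55.7% in early libraries. Over all genes with a gar ortholog, single reads were 5.73% of occurrences at stage 27 and 11.2% early. The share with over 10 reads was not taken over all genes. The rule capped the stage 27 libraries with a read, and the ranking used the early mean level. The gap between the stages is thus in part built into the set.

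**Figure D2:**
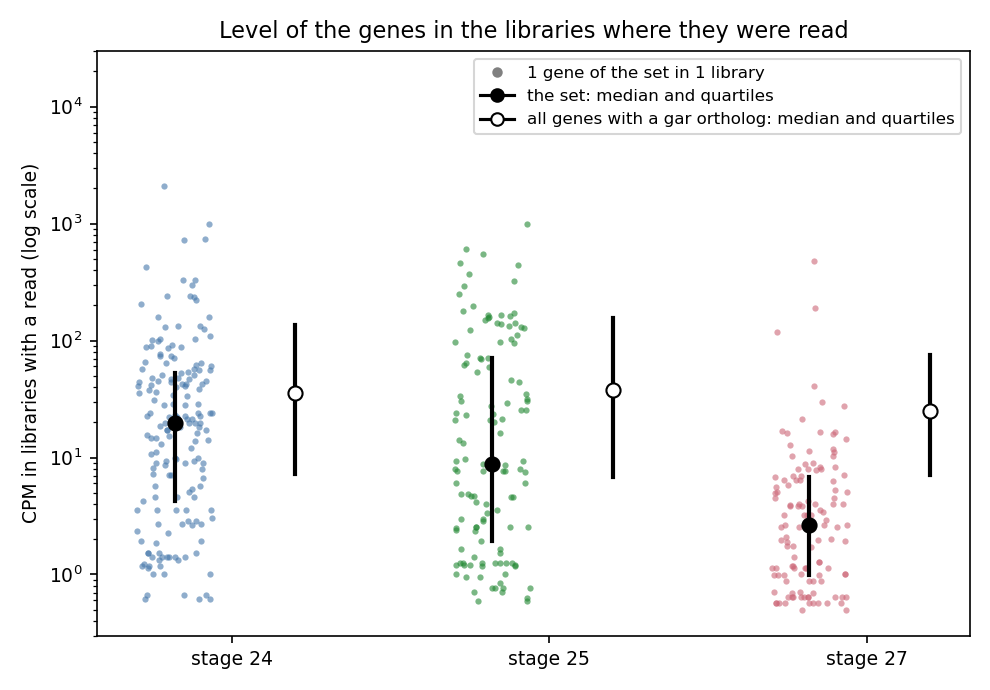
CPM on a log scale in the libraries where a gene was read, by stage. Small points are the rarely read genes, 1 point for each gene and library, filled circles with bars are their median and quartiles, and open circles with bars are the median and quartiles of all genes with a gar ortholog. The set has medians of 19.9, 8.82 and 2.66 CPM at stages 24, 25 and 27.

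Taken over pooled reads, 93 of the 100 genes had a lower level at stage 27 than early and 7 a higher one. This count and those that follow come from the values that chose the genes. No share over all genes is set beside them, so they describe the set only. No stage 27 read was found for 24 genes, which had 7 to 1389 early reads. Against a floor of 3 reads over the 12 stage 27 libraries, or 0.193 CPM, they were at least 1.53-fold to at least 303-fold lower at stage 27. Such floors cover only the counting error of the stage 27 zero and take the early count as exact. Amplified reads are also not independent molecules. The lowest bound, that of AMCG00002041, rests on 7 early reads. AMCG00016652 gave the highest of these bounds, with 1389 early reads, of which 1386 (987 CPM) came from replicate 2 of stage 25 dorsal endoderm. AMCG00009569 was the gene with no stage 27 read and the most early libraries, 6, yet it had only 11 early reads in all, 5 of them in 1 library. Of the 53 genes with over 3 reads at stage 27, 46 were lower there and 7 higher. A few stage 27 libraries held high values, such as 476 CPM of AMCG00017050 and 190 CPM of AMCG00020702 in replicate 3 of ventral endoderm, and 119 CPM of AMCG00005805 in replicate 1 of ventral endoderm.

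Within the early stages, the 3 libraries with most genes also held the highest numbers of rarely read genes. The number per library was 3 to 33 at stage 24 (median 13), 4 to 18 at stage 25 (median 11) and 1 to 27 at stage 27 (median 8.5). The 3 early libraries with most genes, which were replicate 2 of stage 24 ventral endoderm, dorsal endoderm and dorsal mesoderm, held 33, 25 and 21 genes of the set. Together they held 26.5% of the early occurrences of the set and 21.1% of those of all genes with a gar ortholog. Beyond these 3 the order differed. Replicates 3 and 2 of stage 25 ventral endoderm held 18 and 17 genes of the set, with 4064 and 4159 genes read. Replicate 1 of stage 24 dorsal mesoderm held 17 with 6297 genes read. At stage 27, replicate 1 of dorsal endoderm and replicate 1 of ventral mesoderm held 27 and 21 genes of the set, and replicate 2 of dorsal endoderm held 1. Without the 4 stage 24 libraries numbered 2, 12 genes were left with reads in 4 or more early libraries, against 24 with them, and 5 had no early read left. When the ranking was repeated without those 4 libraries, an alternative added after the data were seen, 73 of the 100 genes were kept and the last kept rank fell to genes read in 1 early library. Leaving out the library of 3040 reads kept 24 genes with reads in 4 or more.

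**Figure D3:**
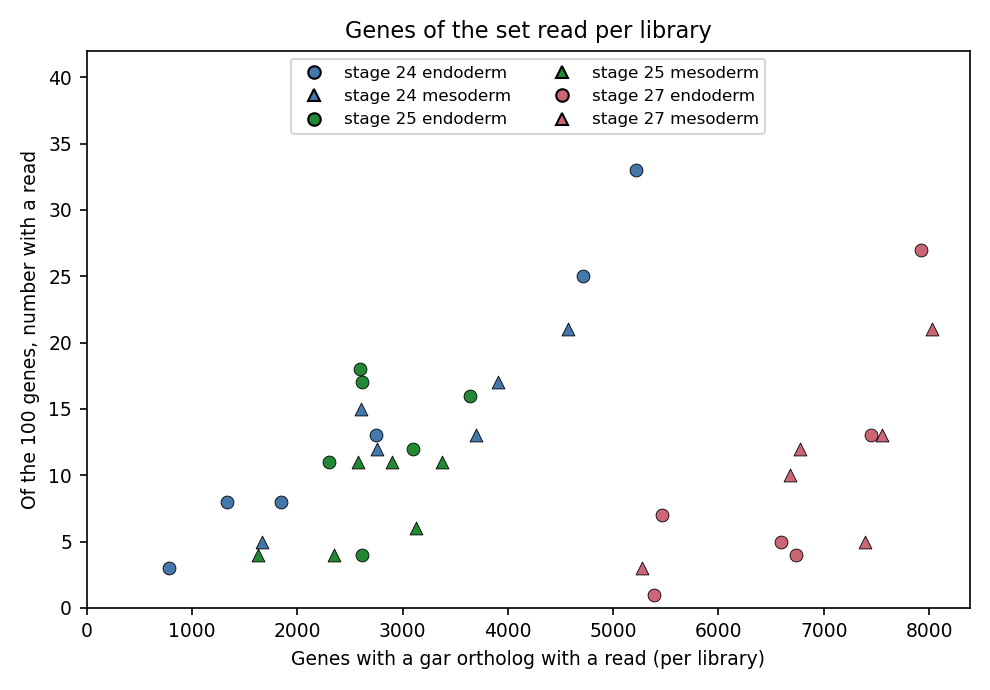
Number of the 100 genes read in each library against the number of all genes with a gar ortholog read there, by stage (colour) and layer (circles endoderm, triangles mesoderm). The count is highest, at 33, in the early library with most genes, and stage 27 libraries lie to the right at counts of 1 to 27.

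Of the rarely read genes, 76 were read in 3 or fewer early libraries, which limits how many a pair could share. Of the 4950 pairs of genes, 3097 shared no early library, 49 shared at least 3, and 4 was the most that any pair shared. Reads early were found in 1 of the 4 regions for 20 genes, in 2 for 49, in 3 for 26 and in all 4 for 5. Counts of pairs and regions depend on the number of libraries with a read. No share over all genes is set beside them, so they describe the set only. The summed level of the set in a library was 314 to 2147 CPM at stage 24, 108 to 1607 CPM at stage 25 and 4.28 to 688 CPM at stage 27. Single genes could make up nearly all of it. AMCG00015808 gave 2092 CPM, or 97.5%, of the sum in replicate 2 of stage 24 ventral mesoderm, and AMCG00020533 gave 98.4% in replicate 3 of stage 25 dorsal mesoderm.

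AMCG00000598 (gar ENSLOCG00000010280) ranked first, with reads in 9 early libraries. At stage 24 it was read in 6 of 12 libraries, at 158 CPM in replicate 3 of dorsal mesoderm, 103 and 22.2 CPM in replicates 1 and 3 of ventral mesoderm, 0.663 CPM in replicate 1 of dorsal mesoderm, 1.42 CPM in replicate 2 of ventral endoderm, and 987 CPM in replicate 3 of ventral endoderm. The last value stands for 3 reads in the library of 3040. At stage 25 it was read in 3 of 12 libraries, at 0.773 to 3.00 CPM, and at stage 27 in replicates 1 and 2 of ventral mesoderm, at 0.569 and 6.38 CPM. Its higher values in deep libraries thus came from stage 24 mesoderm, and the remaining mesoderm libraries of that stage, 2 of 6, had no read. Stage 25 was set against stage 24 as a mean over the 4 regions. The ranking pooled both stages and so did not use this difference, though it used the levels in the same libraries. The log2 difference of the deposited values was -1.92 (SE 0.72), with an unadjusted p of 0.0111 and an adjusted p of 0.884 with limma, over 14132 genes. Without the library of 3040 reads it was -1.20 (adjusted p = 0.771 with limma). Adjusted p ranged from 0.00537 to 1 over its 40 alternatives, the lowest with limma voom on all libraries.

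AMCG00016276 (ENSLOCG00000005009), ranked second, was read mainly in ventral endoderm. In early ventral endoderm it was read in 5 of 6 libraries, at 47.7 and 35.5 CPM in replicates 1 and 2 of stage 24 and at 21.1, 27.7 and 2.52 CPM in replicates 1, 2 and 3 of stage 25. The library without a read was that of 3040 reads, where 1 read would already be 329 CPM. In dorsal endoderm it was read in 2 of 6 libraries, at 18.2 and 2.28 CPM, both of stage 24. Mesoderm had reads in 2 of 12 early libraries, both dorsal, at 9.38 and 4.14 CPM. At stage 27 it had 1 read in replicate 3 of dorsal endoderm and 1 in replicate 3 of ventral endoderm. Over the 12 early endoderm libraries its mean level was 12.9 ± 16.8 CPM (SD), and over the 12 early mesoderm libraries 1.13 ± 2.86 CPM (SD).

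The layers were compared over both sides of stages 24 and 25, to see whether the rarely read genes lay in one layer. The ranking did not use layer or side as such, but it did use the levels in these same libraries. In a shallow library 1 read counts for more CPM. Early endoderm libraries held 10362606 reads in all and early mesoderm libraries 13373678. Counts of the set by layer or side can thus depend in part on the choice. Endoderm libraries held 168 occurrences of the set and mesoderm libraries 130, that is 14% and 10.8% of the possible ones, while for all genes with a gar ortholog these shares were 24.4% in endoderm and 25.6% in mesoderm. Read early in endoderm alone were 27 genes, in mesoderm alone 16, and in both layers 57. Reading in 1 layer alone depends on the number of libraries, so it was set beside all genes with a gar ortholog at the same number. Of the genes read in 2 early libraries, 65.4% of the 52 in the set were in 1 layer alone (20 endoderm, 14 mesoderm), against 51.2% of all 789 (202 in each layer). Of those read in 3 it was 20.8% of the 24 in the set (3 endoderm, 2 mesoderm), against 26.7% of all 636 (89 endoderm, 81 mesoderm). Of those read in 4 it was 33.3% of the 12 in the set (4 endoderm, none mesoderm), against 12.3% of all 576 (38 endoderm, 33 mesoderm). The set lay above all genes at 2 and 4 libraries and below them at 3, with few genes at each number. With limma, 0 of the 79 tested genes of the set differed between layers (adjusted p under 0.05), where 0.354% of all 14132 tested genes did (0.142% higher in endoderm and 0.212% lower). The other 21 did not reach over 1 CPM in 3 libraries and were not tested. At an unadjusted p under 0.05 with limma were 14 of the 79 (17.7%) and 1105 of all genes (7.82%). The difference between such shares was not tested. The fit took the spread of each gene from all 36 libraries, and the rule chose genes with few reads at stage 27. Their spread there can thus be small by choice, which can lower their p in every comparison made here. Shares of the set at an unadjusted p, here and below, therefore describe the set only. The median log2 difference was 0.06 in the set, with 44 of its genes higher and 35 lower in endoderm, and -0.01 over all genes. Higher in endoderm were 55.7% of the tested genes of the set and 42% of all tested genes, of which 50.6% were lower. Limma voom on the recovered reads called 17 of the 79 genes of the set, all higher in endoderm, where it called 7.39% of all tested genes (6.99% higher). Without the library of 3040 reads it called 1, also higher in endoderm, where it called 1.96% of all genes (1.17% higher).

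AMCG00016276 had the smallest p of the set in this comparison, at 1.53 on the log2 scale for endoderm minus mesoderm (SE 0.47; limma, adjusted p = 0.228). Without the library of 3040 reads the difference was 1.91 and the adjusted p 0.0255. It was past the threshold with limma voom too (adjusted p = 0.0127, and 0.0416 without that library). Over its 42 alternatives adjusted p ranged from 0.0127 to 0.916, and the difference was positive in each. The gene with the next smallest p, AMCG00008869 (ENSLOCG00000007577), lay in mesoderm. In early endoderm it had 1 read, in replicate 2 of stage 25 dorsal endoderm. In early mesoderm it was read in 5 of 12 libraries, at 34.5 and 60.3 CPM in replicates 1 and 2 of stage 24 dorsal mesoderm, 44.4 and 1.66 CPM in replicates 2 and 3 of stage 25 dorsal mesoderm and 24.0 CPM in replicate 3 of stage 24 ventral mesoderm. At stage 27 it was read in mesoderm again, at 16.7 CPM in replicate 1 of dorsal and 1.14 CPM in replicate 1 of ventral mesoderm. Endoderm minus mesoderm came to -1.53 on the log2 scale (SE 0.51; limma, adjusted p = 0.303). Over 42 alternatives its adjusted p was 0.0521 to 0.89. In the setting without replicate 1 of stage 24 dorsal endoderm 2 genes of the set were called, and in those without replicate 3 of stage 24 ventral endoderm and replicate 2 of stage 25 ventral endoderm 1 gene each. Among all tested genes, calls between the layers ranged from 0 to 71 with libraries or replicates left out. These counts thus describe the set only.

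**Figure D4:**
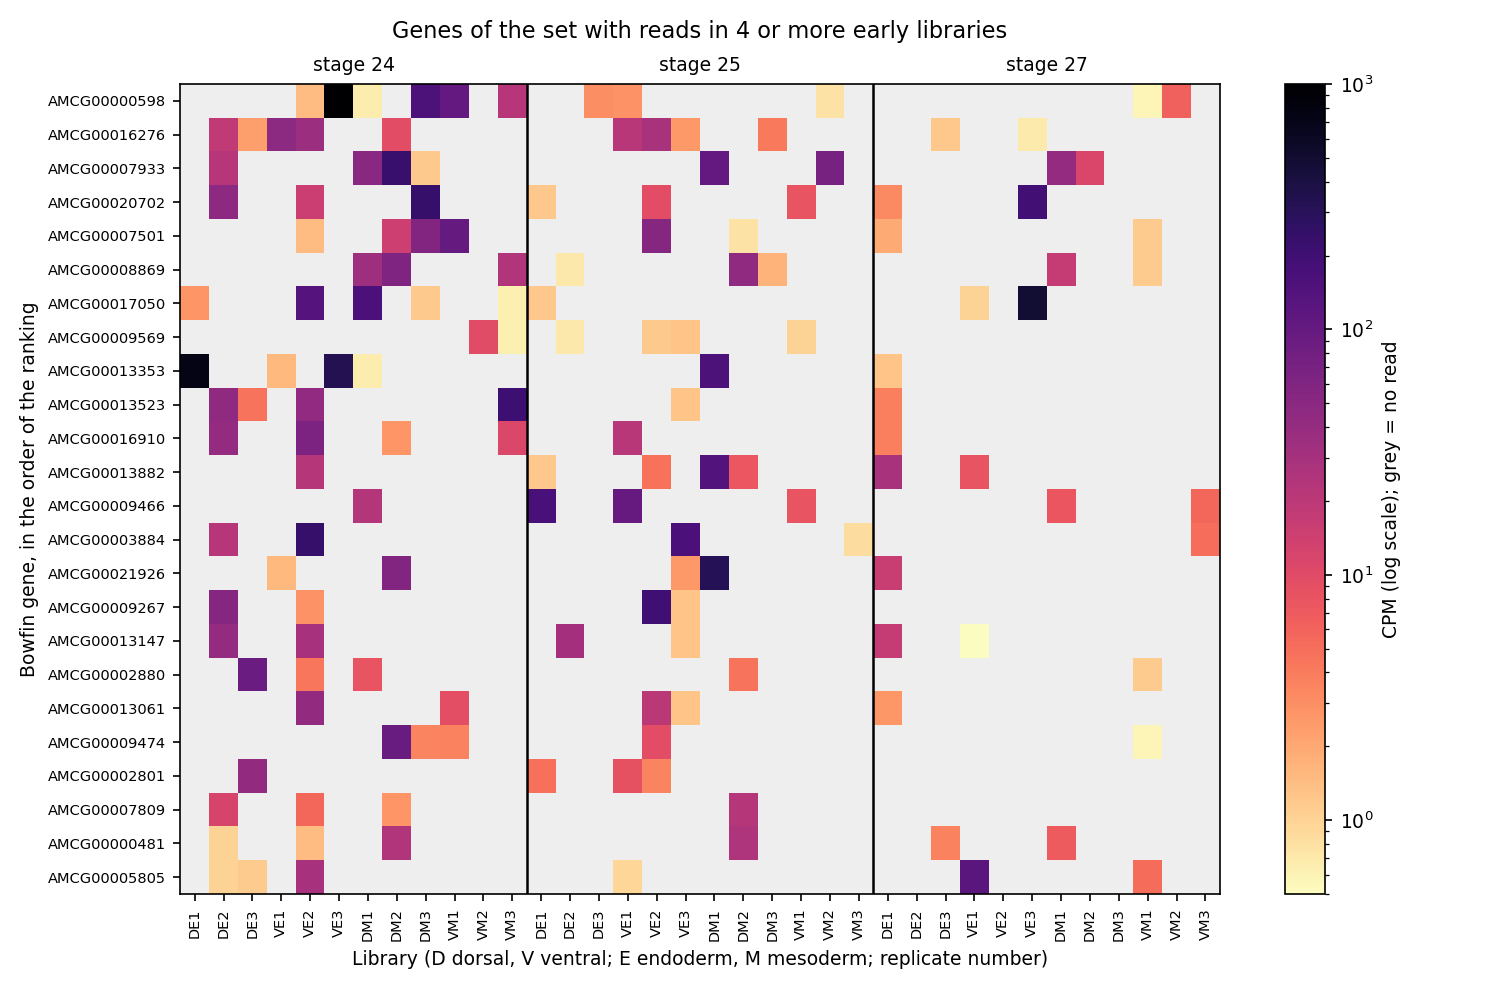
CPM (colour, log scale; grey means no read) of the 24 genes of the set with reads in 4 or more early libraries, 1 row for each gene in the order of the ranking, in all 36 libraries ordered by stage and region. Reads are scattered over libraries, and AMCG00016276 in the second row has reads in 5 of 6 early ventral endoderm columns.

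Dorsal and ventral endoderm were compared over stages 24 and 25, as the gas bladder buds from the dorsal side. Dorsal endoderm libraries held 73 occurrences of the set and ventral ones 95, or 12.2% and 15.8% of the possible ones, while all genes with a gar ortholog were read in 24.5% of dorsal and 24.4% of ventral combinations. There were 4 to 25 genes of the set per library dorsally and 3 to 33 ventrally. With limma 0 of the 79 tested genes differed, where 0% of all 14132 genes did. In the same fit 11 of the 79 (13.9%) and 619 of all genes (4.38%) had an unadjusted p under 0.05. The median log2 difference was 0 in the set and over all genes, and 31 genes of the set were higher dorsally, 37 lower and 11 without any difference because neither side had a read. Higher dorsally were 39.2% of the tested genes of the set and 41.2% of all tested genes, of which 41.3% were lower. Limma voom called 9 of the 79, all lower dorsally, where it called 7.08% of all genes, nearly all of them lower too (7.08%). Without the library of 3040 reads it called 0 of the set, where it called 0.0495% of all genes.

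AMCG00016328 (ENSLOCG00000018197) had the smallest p here and the next after AMCG00008869 between the layers, where its log2 difference was 0.90 (SE 0.35, adjusted p = 0.435 with limma, and 0.0459 without replicate 2 of stage 25 ventral endoderm). That difference was 0.55 without replicate 3 of the same group, and its adjusted p ranged from 0.019 to 0.94 over the alternatives. All of its reads were in ventral endoderm. It had no read in the 6 early dorsal endoderm libraries, against 13.9 CPM in replicate 1 of stage 24 and 7.67 and 74.5 CPM in replicates 1 and 3 of stage 25 in ventral endoderm. The log2 difference was -1.81 (SE 0.49, unadjusted p = 0.000671, adjusted p = 0.531 with limma). Without replicate 2 of stage 25 ventral endoderm, a library with no read of this gene, the difference was -2.45 and the adjusted p 0.00864, while without replicate 3, which held its highest value, they were -1.11 and 0.696. For AMCG00016276, read dorsally in 2 of 6 libraries and ventrally in 5 of 6, the log2 difference was -2.23 (SE 0.67, adjusted p = 0.59 with limma), and -2.99 (adjusted p = 0.158) without the library of 3040 reads. AMCG00001446 (ENSLOCG00000015596) went the other way, at 42.5 and 17.1 CPM in replicates 2 and 3 of stage 24 dorsal endoderm, against no read in early ventral endoderm. Its log2 difference was 1.33 (SE 0.41, adjusted p = 0.667 with limma), and 1.99 (adjusted p = 0.00118) without replicate 1 of stage 24 dorsal endoderm, which had no read of it, but 0.84 (adjusted p = 0.963) without replicate 2. It turned to -0.37 with limma voom on all libraries (adjusted p = 0.807). Over the alternatives, adjusted p ranged from 0.00864 to 1 for AMCG00016328, from 0.0231 to 1 for AMCG00016276 and from 0.00118 to 1 for AMCG00001446.

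Dorsal and ventral mesoderm were compared in the same way. Dorsal mesoderm held 79 occurrences of the set and ventral mesoderm 51, or 13.2% and 8.5% of the possible ones, at 4 to 21 and 4 to 13 genes per library. All genes with a gar ortholog were read in 28.3% of dorsal and 23% of ventral combinations. With limma 0 of the 79 tested genes of the set differed, where 0.0354% of all 14132 genes did (0.0142% higher dorsally and 0.0212% lower). In the same fit 11 of the 79 (13.9%) and 993 of all genes (7.03%) had an unadjusted p under 0.05. In the set 37 genes were higher dorsally, 25 lower and 17 without any difference, and the median log2 difference was 0, against 0.04 over all genes. Higher dorsally were 46.8% of the tested genes of the set and 51% of all tested genes, of which 32.7% were lower. Limma voom called 0 genes of the set, where it called 0.17% of all genes, and 0 without the library of 3040 reads, where it called 0.743%.

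The 3 genes of smallest p were all read in dorsal mesoderm and not in early ventral mesoderm. AMCG00010438 (ENSLOCG00000009638) was read at 22.8 and 22.4 CPM in replicates 2 and 3 of stage 24 dorsal mesoderm, in no other early library, and at 7.94 and 6.92 CPM in replicates 2 and 3 of stage 27 dorsal mesoderm. Every read of this gene thus came from dorsal mesoderm. Its log2 difference was 1.25 (SE 0.42, adjusted p = 0.414 with limma), and 1.87 (adjusted p = 0.0113) without replicate 1 of stage 24 dorsal mesoderm, which had no read of it. With other libraries or replicates left out the difference was as low as 0.93, and the adjusted p with limma as high as 0.849. Over all its alternatives the lowest difference was 0. AMCG00013624 (ENSLOCG00000014353) was read at 53.0 and 149 CPM in replicate 1 of stages 24 and 25 dorsal mesoderm, and at 4.46 CPM in replicate 2 of stage 27 ventral mesoderm. Its log2 difference was 1.88 (SE 0.67, adjusted p = 0.471 with limma) and became 0 without the libraries numbered 1, 1.06 with replicate 1 of stage 24 dorsal mesoderm left out and 0.82 with that of stage 25 left out. The third gene, AMCG00018194 (ENSLOCG00000003612), had 8.82 and 71.1 CPM in replicates 1 and 2 of stage 25 dorsal mesoderm, and at stage 27 had 5.30 CPM in replicate 2 of dorsal and 3.98 CPM in replicate 1 of ventral mesoderm. At the early stages it differed by 1.31 on the log2 scale (SE 0.47; limma, adjusted p = 0.484). It was 1.96 (adjusted p = 0.0291) once replicate 3 of stage 25 dorsal mesoderm was left out, and with replicate 2 left out instead 0.63 (adjusted p = 0.821). Adjusted p ranged over the alternatives from 0.0113 to 1 for AMCG00010438, from 0.18 to 1 for AMCG00013624 and from 0.0291 to 1 for AMCG00018194.

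**Figure D5:**
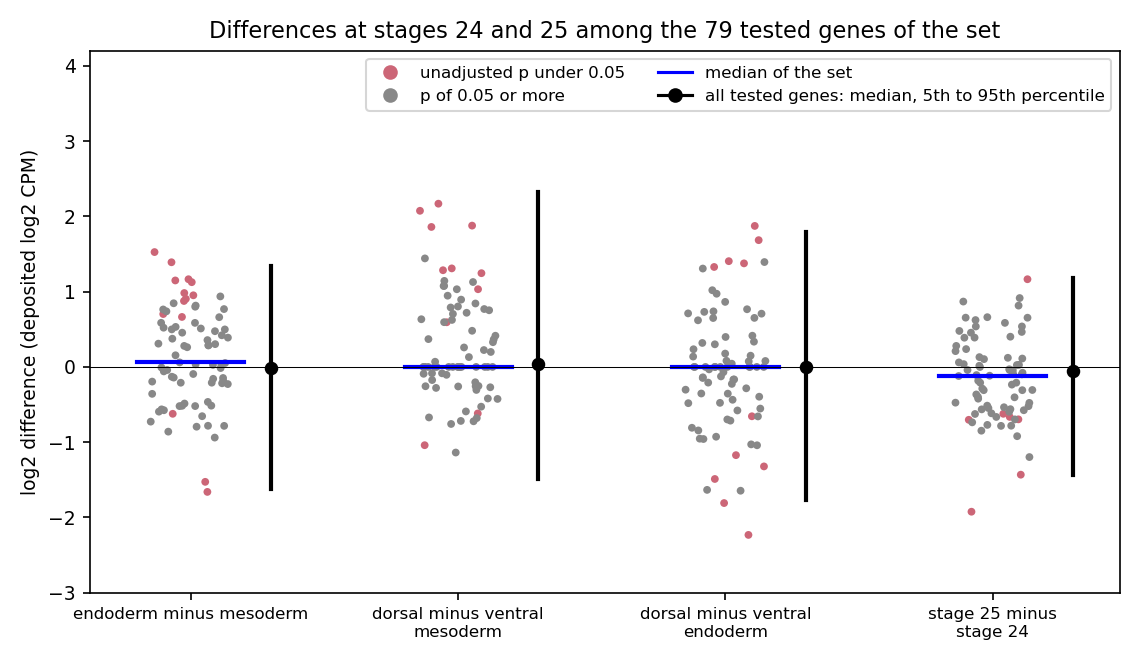
Log2 differences of the deposited values for the 79 tested genes of the set in 4 comparisons at stages 24 and 25, 1 point for each gene, red at an unadjusted p under 0.05, with the median of the set as a blue line and the median with the 5th to 95th percentile of all 14132 tested genes in black. The medians of the set lie at 0.06, 0, 0 and -0.12, and no point passed the adjusted threshold.

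Between stage 25 and stage 24, 0 of the 79 tested genes of the set differed with limma, where 0.00708% of all 14132 genes did. In the same fit 7 of the 79 (8.86%) and 771 of all genes (5.46%) had an unadjusted p under 0.05. The set had 125 occurrences at stage 25 and 173 at stage 24, or 10.4% and 14.4% of the possible ones. All genes with a gar ortholog were read in 23.9% of combinations at stage 25 and 26.1% at stage 24. The median log2 difference of the set was -0.12, with 29 genes higher and 50 lower at stage 25, against -0.05 over all genes. Higher at stage 25 were 36.7% of the tested genes of the set and 40.2% of all tested genes, of which 52.4% were lower. AMCG00013523 (ENSLOCG00000014813) had 1.26 CPM in replicate 3 of stage 25 ventral endoderm, and at stage 24 had 44.5 and 4.57 CPM in replicates 2 and 3 of dorsal endoderm, 44.1 CPM in replicate 2 of ventral endoderm and 206 CPM in replicate 3 of ventral mesoderm. The log2 difference was -1.43 (SE 0.55, adjusted p = 0.884 with limma), and -0.86 without replicate 3 of stage 24 ventral mesoderm. Its adjusted p ranged from 0.00337 to 1 over the alternatives and passed the threshold with limma voom, whether or not the library of 3040 reads was kept. For AMCG00001446, read early in stage 24 dorsal endoderm alone, it was -0.66 (SE 0.29, adjusted p = 0.884 with limma), and -0.42 without replicate 2 of that group. Its adjusted p ranged from 0.00855 to 1 over the alternatives, and it too passed the threshold with limma voom in both cases, at -2.64 with all libraries and -1.54 without that of 3040 reads. Limma voom called 44 of the 79 genes of the set, all lower at stage 25, where it called 42.6% of all genes (42.4% lower). Without the library of 3040 reads it called 14, all lower, where it called 7.18% of all genes (7.03% lower). Stages 24 and 25 fall into separate blocks of library numbers, so this comparison cannot be told apart from a batch. Whether the endoderm to mesoderm or dorsal to ventral differences changed between stages 25 and 24 was tested with limma as well. It gave 0 calls in each of the 3 comparisons, among the 79 genes as among all tested genes (0%). For the layers, an unadjusted p under 0.05 was found for 7 of the 79 genes of the set and 635 of all 14132 genes. Out of the same totals it was found for 8 and 769 for the sides of mesoderm, and 8 and 609 for the sides of endoderm.

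Of the other genes among the first 12 of the ranking, AMCG00007933 (ENSLOCG00000007459) lay mainly in dorsal mesoderm. It was read in 3 of 3 libraries of stage 24 dorsal mesoderm, at 50.4, 224 and 1.18 CPM, and shared this with AMCG00016276 in stage 25 ventral endoderm as the 2 genes of the set read throughout an early group. Its other early reads were at 103 CPM in replicate 1 of stage 25 dorsal mesoderm, 71.1 CPM in replicate 2 of stage 25 ventral mesoderm and 22.3 CPM in replicate 2 of stage 24 dorsal endoderm, and its stage 27 reads were in dorsal mesoderm alone, at 41.2 and 11.5 CPM in replicates 1 and 2. Endoderm minus mesoderm was -1.66 on the log2 scale, the lowest of the set (SE 0.68; limma, adjusted p = 0.507), and dorsal minus ventral mesoderm 2.17, the highest of the set (SE 0.96; limma, adjusted p = 0.646). The 6 genes that follow had early reads in both layers. AMCG00020702 was read in 4 endoderm and 2 mesoderm libraries, and its highest early level was 239 CPM in replicate 3 of stage 24 dorsal mesoderm. AMCG00007501, with 6 early libraries, was highest at 99.8 CPM in replicate 1 of stage 24 ventral mesoderm and had 1.93 and 1.14 CPM in its 2 stage 27 libraries. AMCG00017050 had 134 CPM in replicate 2 of stage 24 ventral endoderm and 160 CPM in replicate 1 of stage 24 dorsal mesoderm, and 4 of its 6 early libraries held a single read. AMCG00013353 had 726 CPM in replicate 1 of stage 24 dorsal endoderm and 154 CPM in replicate 1 of stage 25 dorsal mesoderm, with single reads in its other 3 early libraries. AMCG00016910 was read in 3 early endoderm and 2 early mesoderm libraries, at most at 64.0 CPM, and AMCG00013882 at most at 140 CPM, in replicate 1 of stage 25 dorsal mesoderm. Each of them, like AMCG00007933, had no read in at least 18 of the 24 early libraries.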

How the data were processed

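The tools named in the submitters' processing notes are Trimmomatic 0.38, STAR 2.6, edgeR and R 3.6.0. The genome build, annotation and counter are not given in the sources used here. The table deposited by the authors holds log2 CPM for 21948 genes in 36 libraries. Its smallest value is 0.875 and the unlogged values of every library add up to 1040241, as a prior count of 2 gives. Whole reads and totals were recovered from this relation. Below 200 reads 100% of values were whole within 0.02, the deposited values were rebuilt from those reads to within 5.0e-09, and 0 pairs of libraries were identical.

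A linear model with 12 group means and a variance trend was fitted with limma 3.58.1 in R 4.3.3 to the deposited log2 values of all 36 libraries. Alternatives were other filters, pseudocounts, scalings and sample subsets, each library left out, a replicate block, and limma voom on the recovered reads. Testing was limited to genes that exceeded 1 CPM in 3 or more libraries, 79 of the 100 among them, with Benjamini-Hochberg adjustment over the whole table and a threshold of 0.05. A fitted log2 difference includes the prior count and understates changes of low genes. The fit was checked on simulated counts with known changes. These changes were large and placed in genes of higher level at both early stages. The check thus does not show the power for genes as rarely read as those of the set. Members and lists were chosen with earlier results of these data known. The table pairs identifiers with no names, so gene lists fixed by symbol were not used. Named are the first 12 genes of the ranking, those at the cut, and in each comparison the 3 of smallest p where fewer than 3 passed; others are named for values singled out after they were seen.

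Replicate numbers were not taken to pair libraries, since the labels do not say that they mark shared embryos. Same-numbered early libraries deviated together (correlation over 0.1) in 2 of 36 pairs. Both were dorsal and ventral endoderm of stage 24, at 0.107 in replicate 1 and 0.211 in replicate 2. Libraries of unlike number were not compared in this way.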

Additional observations from a re-analysis of the deposited data

How the results depend on the processing

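With limma on the deposited values, the 4 comparisons called 0 genes of the set, and this count was kept under quantile normalization, median centring, no variance trend and the fit of stages 24 and 25 alone. Leaving out replicates gave 0 to 2 for endoderm and mesoderm, 0 to 1 for dorsal and ventral mesoderm, 0 to 2 for dorsal and ventral endoderm and 0 to 0 for stages 25 and 24. Limma voom on recovered reads called 17, 0, 9 and 44, and 1, 0, 0 and 14 without the library of 3040 reads; the cause was not tested. AMCG00001446 turned to -0.37 under voom in dorsal against ventral endoderm (adjusted p = 0.807). Over all genes, endoderm against mesoderm gave 50 calls, with 2 from stages 24 and 25 alone, 0 in stage 24, 13 in stage 25, 1044 with voom, 277 without that library and 0 to 71 with replicates left out. Dorsal against ventral mesoderm gave 5, with 9 after quantile normalization, 12 without a variance trend, 24 with voom, 105 without that library, 3 in stage 24, 13 without the 4 stage 24 libraries numbered 2 (an alternative chosen after seeing the data) and 0 to 19 with replicates left out. Dorsal against ventral endoderm gave 0, with 1001 by voom, 7 without that library and 0 to 5 with replicates left out. Stage 25 against 24 gave 1, with 4 after quantile normalization, 0 after median centring, 2 from stages 24 and 25 alone, 6015 with voom, 1015 without that library, 2 without the stage 24 libraries numbered 2 and 0 to 3 with replicates left out. With the replicate number as a replicate block, 49, 5, 0 and 1 genes were called, and 0 of the set. Of the 100 genes, 57 were kept when reading meant at least 2 reads, 14 at 5 CPM, 46 after thinning to 377516 reads, 24 with no stage 27 library allowed, 52 with 3 allowed, 44 when genes without an ortholog were ranked too, and 69 to 99 with libraries left out. The lowest, 69, came without replicate 1 of stage 27 dorsal endoderm or of ventral mesoderm.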

Other observations

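Beyond the limits of the set, a few genes had more early libraries, and they were singled out after their values were seen. AMCG00004867 (ENSLOCG00000010091) was read in 10 early libraries and 3 stage 27 libraries, which is 1 too many for the set. It had 1 or 2 reads in each early library, and in stage 27 endoderm it had 13 reads in replicate 1 of ventral endoderm, 2 in replicate 3 of dorsal endoderm and 1 in replicate 3 of ventral endoderm. Its level was thus at most 5.30 CPM in early libraries, with 6.51 CPM in the highest stage 27 library.

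Among the 10520 genes without a gar ortholog, 18 were read in at most 2 stage 27 libraries and in 4 or more early ones. AMCG00005175 was read in 10 early libraries, 8 of endoderm and 2 of mesoderm, at most at 194 CPM in replicate 3 of stage 25 ventral endoderm, and in 2 stage 27 libraries at 2.00 and 9.67 CPM. AMCG00000898 was read in 8 early libraries and none of stage 27, but had only 1 to 3 reads in each. AMCG00007706 was read in 7 early libraries. These were 3 of 3 libraries of stage 24 dorsal mesoderm, at 432, 69.7 and 9.44 CPM, and 2 of stage 24 ventral mesoderm, at 164 and 7.39 CPM. At stage 25 it had 4.84 CPM in replicate 1 of dorsal endoderm and 6.18 CPM in replicate 2 of ventral mesoderm. At stage 27 it was read in mesoderm, at 9.71 CPM in replicate 2 of dorsal and 37.4 CPM in replicate 3 of ventral mesoderm. No test was made of these genes.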
